A study of Mus musculus with 6 samples.

Results

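The peptide and organic ion transporters described here are 3 families of solute carriers: the Slc15 proton-coupled peptide carriers, the Slc22 carriers of organic cations, zwitterions and anions, and the Slco family, also called OATPs, which carries bulky organic anions. Members were chosen by gene symbol alone (Slc15a, Slc22a or Slco followed by a number), and the rule leaves out Slco1c1 and Slc22a18. It found 43 of the 43383 rows of the table, namely 5 Slc15, 24 Slc22 and 14 Slco genes. Their mRNA was measured by RNA-seq in cortical astrocytes (somatosensory area) of male Aldh1l1-eGFP mice aged 4 weeks, a line in which the Aldh1l1 promoter drives GFP in astrocytes. Layers II to IV and layers V to VI were dissected apart, and the GFP-positive cells of each were sorted as upper-layer astrocytes (ULAs) and deep-layer astrocytes (DLAs). Layer I, the meninges and the corpus callosum had been removed, and tissue around the boundary of layers IV and V was lost, so that each group is a mixture of layers. Each of 3 brains gave 1 ULA and 1 DLA library, 6 in all. Libraries with the same replicate number were taken to be from the same brain, and the layers were compared within brains.

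Carriers of these families move small polar or charged molecules across membranes. Slc15 proteins import dipeptides and tripeptides with protons, some of them at the cell surface and others at lysosomes. Many Slc22 and Slco proteins are best known from kidney and liver, where they take up drugs, bile acids and metabolites, and in brain several members are known from the blood-brain barrier and the choroid plexus. Astrocytes are known to express the peptide carrier Slc15a2, which takes up dipeptides such as carnosine.

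Values are RPKM, reads per kilobase of mRNA per M mapped reads, and therefore levels of different genes are compared per length. The steps between low RPKM values put the depth at 19.7 to 29.6 M reads per library. The sorted cells were rich in astrocyte markers, with a summed level of 9 genes between 10526 and 12093 RPKM. The summed level of 8 oligodendrocyte markers was 87.0 to 177 RPKM in ULAs and 176 to 274 RPKM in DLAs, and 5 of the 7 tested passed the test in the direction of DLAs. Red blood cell markers summed to 0.81 to 1.07 RPKM in ULAs and 4.70 to 32.6 RPKM in DLAs. The 10 microglia and macrophage markers summed to 14.4 to 15.2 RPKM in ULAs and 9.53 to 12.5 RPKM in DLAs. The 5 fibroblast markers, of which Col3a1 was listed at 0, summed to 3.07 to 4.10 and 4.95 to 6.27 RPKM. Neither sum overlapped between the layers, but each was mostly 1 gene. P2ry12 gave 11.6 to 12.6 RPKM in ULAs and 7.76 to 10.2 RPKM in DLAs of the microglia sum. Col1a1 gave 2.49 to 3.29 and 3.67 to 5.66 RPKM of the fibroblast sum. The 7 pericyte and smooth muscle markers summed to 15.2 to 21.9 RPKM in ULAs and 11.4 to 18.0 RPKM in DLAs. Of the 2 tested, Rgs5 passed in the direction of ULAs (adjusted p = 0.0455 by limma). The other, Pdgfrb, supplied most of the sum and did not pass (adjusted p = 0.790 by limma). Vtn, too low to be tested, went the other way, at 0 to 0.06 RPKM in ULAs and 0.10 to 0.17 RPKM in DLAs. Over both layers the sums were 4.90 to 7.29 RPKM for 8 neuron markers, 0.36 to 0.93 for 4 markers of oligodendrocyte precursors and 0.36 to 0.91 for 4 of choroid plexus and ependyma. The part of these other cells in the values below was not tested, and in bulk RNA fewer expressing cells and less RNA per cell cannot be told apart.

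A few carriers supplied nearly all of the mRNA of the 43 members, which do not include Slco1c1. Slc22a17 and Slc15a2 together made up 81.6 to 84.5% of the summed level of all 43 members in each library. For brains 1, 2 and 3 that sum came to 430, 369 and 383 RPKM in ULAs against 384, 355 and 320 RPKM in DLAs. By mean RPKM over the 6 libraries, 5 members stood at 10 or more (Slc22a17, Slc15a2, Slc22a4, Slc22a23 and Slc22a5) and 5 more between 1 and 10 (Slc15a4, Slco3a1, Slco1b2, Slc22a21 and Slco1a5). Another 5 lay between 0.1 and 1 (Slc22a15, Slc15a3, Slco1a4, Slco2b1 and Slc22a8), 23 were above 0 and under 0.1, and 4 described below were listed at 0 in every library. Among the Slc15 and Slco members, none other than Slc15a2 reached a mean of 10 RPKM.

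In the order of levels, Slc22a17 was 1.58 times Slc15a2, Slc15a2 was 5.21 times Slc22a4, and Slc22a4 was 2.09 times Slc22a23. At each of these steps the ranges over the 6 libraries did not overlap. Slc22a23, Slc22a5 and Slc15a4 followed with overlapping ranges, then came a gap of 5.0 times to Slco3a1. The ranges of Slco3a1, Slco1b2, Slc22a21 and Slco1a5 overlapped from one to the next. Within libraries, Slco3a1 was above Slco1b2 in 3 of 6, Slco1b2 above Slc22a21 in 4 and Slc22a21 above Slco1a5 in 5. Whether these neighbours differ was not tested.

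**Figure D1:**
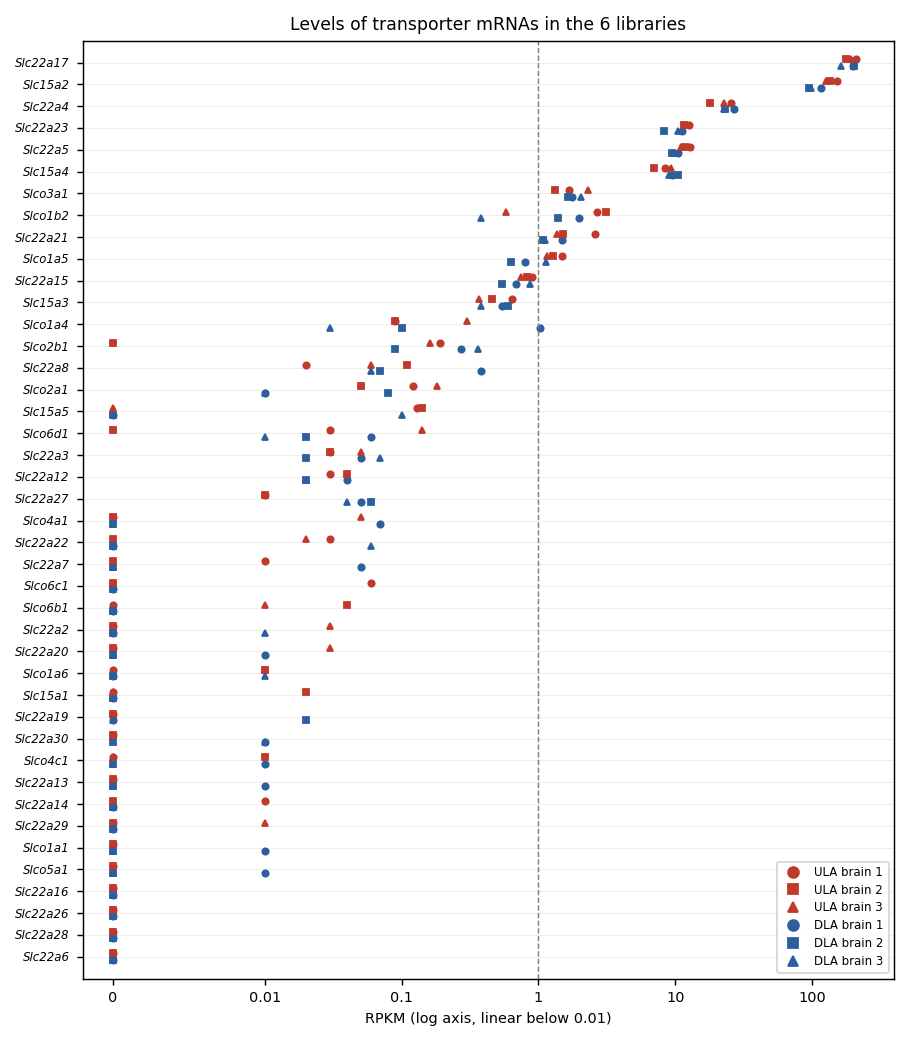
RPKM of the transporter mRNAs (rows, ordered by mean level) in the 6 libraries, on a log axis that is linear below 0.01. Red symbols are ULAs and blue symbols DLAs, with a circle, square and triangle for brains 1, 2 and 3, and the dashed line marks the mean of 1 RPKM needed for a test, which 10 members reached. Slc22a17 and Slc15a2 stand far to the right of the others, and the 4 members in the lowest rows sit at 0 in every library.

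The question the layers pose is which of these carriers differ between ULAs and DLAs of the same brain. The 10 members with a mean of at least 1 RPKM were read from a limma fit of log2(RPKM + 1) over all 13999 rows that passed this filter, with brain as a block and Benjamini-Hochberg adjustment over all of them. None of the 10 had an adjusted p under 0.05 in either direction, where 0.714% of all rows tested passed toward ULAs and 0.914% toward DLAs. At an unadjusted p under 0.05 there were 3 members with higher values in ULAs (Slc15a2, Slc22a23 and Slco1b2), against 5.64% of all rows, and 0 with higher values in DLAs, against 10.8% of all rows. The median log2 fold change of the 10 members, ULA over DLA, was 0.26, with a range from −0.21 to 0.43. Of them, 7 had a positive value (70.0%), whereas the median of all rows tested was −0.03 and 45% were positive.

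Library by library, every ULA value lay above every DLA value for 4 of the 10 members tested (Slc15a2, Slc22a23, Slco1a5 and Slc22a5), an arrangement found in 6.59% of all rows tested. The opposite arrangement occurred in 0 of the 10 members tested and in 9.27% of rows. Within each of the 3 brains the ULA value was above the DLA value for 6 members, namely these 4 with Slc22a21 and Slco1b2, and for 15.2% of rows. Slc22a4 alone among the 10 had the higher value in the DLAs of 3 of 3 brains, which held for 23.2% of rows. With values exchanged within the 3 brains, no exact two-sided permutation test of 1 gene can reach a p under 0.25, nor under 0.1 when the pairs are ignored, so single genes rest on the limma fit.

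**Figure D2:**
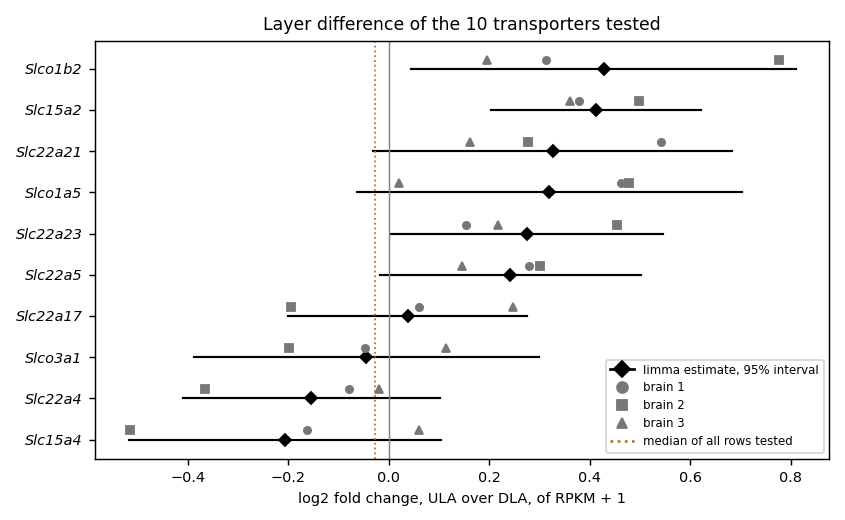
Log2 fold change, ULA over DLA, of the 10 transporters tested, on the log2(RPKM + 1) scale. Black diamonds and lines are limma estimates with 95% intervals, grey symbols the 3 brains, and the dotted line the median of all rows tested at −0.03. The interval of Slc15a2 runs from 0.20 to 0.62 and those of Slc22a23 and Slco1b2 also lie above 0, but no adjusted p of the 10 was under 0.05.

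Among the Slc15 peptide carriers, Slc15a2 (chr16:36750250-36785048 of mm9, minus strand, 22 exons) is the high-affinity surface carrier of dipeptides and tripeptides. Listed for brains 1, 2 and 3 throughout, its ULA levels were 152, 135 and 126 RPKM and its DLA levels 117, 95.3 and 97.9 RPKM. All 3 ULA values lay above all 3 DLA values, and brain 1 was the highest in both layers. The log2 ratio within brains on the log2(RPKM + 1) scale was 0.38, 0.50 and 0.36, and the limma log2 fold change was 0.41 (SE 0.09, adjusted p = 0.064). The 6 values rest on 7876 to 15655 reads each. The limma call depended on the brains used, with an adjusted p of 0.0166 without brain 3 and 0.441 without brain 1.

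Slc15a4, which carries histidine and small peptides out of lysosomes, gave 8.40, 7.03 and 9.38 RPKM in ULAs and 9.52, 10.5 and 8.96 RPKM in DLAs (chr5:128076036-128097762, mm9, minus strand). The ranges overlapped and the brains did not share a direction, with DLAs higher in brains 1 and 2 and ULAs in brain 3. Its log2 fold change was −0.21 (SE 0.14, 95% interval −0.52 to 0.11, adjusted p = 0.493). Slc15a3, the closest relative of Slc15a4 and also a lysosomal carrier, was low at 0.37 to 0.64 RPKM in ULAs and 0.38 to 0.60 RPKM in DLAs, from 23 to 37 reads. On mm9, 87 exon bases of Slc15a3, 3.7% of its mRNA, overlap those of Tmem132a on the opposite strand. The mean level of Tmem132a was 12.03 RPKM, and the cDNA kit does not mark strand. Over the 4 reference transcripts of Slc15a3, 27.4% of the 36-base words also occur in another gene, nearly all in Tmem132a on the opposite strand. The level of Slc15a3 is therefore uncertain. The intestinal carrier Slc15a1 had 2 reads in 1 library and 0 in the others, and the little studied Slc15a5 had 7 to 9 reads in 3 libraries and was at 0 in the other 3.

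Of the Slc22 family, Slc22a17 had the highest level of all members in both layers. It encodes a brain organic cation carrier homologue that is also known as a receptor for lipocalin 2 (chr14:55525564-55531969, mm9, minus strand, 9 exons). Its level was 208, 177 and 194 RPKM in ULAs and 199, 202 and 163 RPKM in DLAs, with overlapping ranges of the layers. The log2 fold change was 0.04 (SE 0.11, adjusted p = 0.893), and the 95% interval of −0.20 to 0.28 bounds the difference that these libraries allow. Brain 2 had its higher value in DLAs, while brains 1 and 3 had theirs in ULAs. Slc22a23, an orphan carrier (chr13:34271027-34437051, mm9, minus strand), gave 12.6, 11.6 and 12.3 RPKM in ULAs and 11.3, 8.21 and 10.4 RPKM in DLAs. The layers did not overlap, with the lowest value in the DLAs of brain 2, the library with the fewest reads. The log2 fold change of Slc22a23 was 0.28 (SE 0.12, 95% interval 0.01 to 0.55, adjusted p = 0.297 by limma).

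The carnitine and ergothioneine carriers Slc22a5, Slc22a21 and Slc22a4, also called OCTN2, OCTN3 and OCTN1, form a cluster at chr11:53678044-53841592 (mm9), all on the minus strand. Slc22a21 lies 3098 bases from Slc22a4 and 59120 bases from Slc22a5. This was the only cluster among 7 groups of neighbouring members in which every gene reached a mean of 1 RPKM. The 3 genes are close copies of each other, which bears on counting because the reads were 36 bases long. Over their coding sequences, Slc22a5 and Slc22a21 were identical at 90.5% of 1674 aligned bases, Slc22a5 and Slc22a4 at 77.2%, and Slc22a21 and Slc22a4 at 75.5%. The longest identical run of Slc22a5 and Slc22a21 spans 157 bases, from base 1289 to 1445 of the Slc22a5 coding sequence. The window below shows the end of that run and the bases after it, taken from the GENCODE M21 transcripts (5′ to 3′, coding bases 1386 to 1475 of Slc22a5 and Slc22a4 and 1395 to 1484 of Slc22a21). Capitals mark bases that differ from Slc22a5, 5 in Slc22a21 and 25 in Slc22a4.
Slc22a5: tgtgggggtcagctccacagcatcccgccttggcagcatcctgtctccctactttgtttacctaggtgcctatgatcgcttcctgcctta
Slc22a21: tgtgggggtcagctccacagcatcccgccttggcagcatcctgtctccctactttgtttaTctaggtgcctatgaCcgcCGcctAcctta
Slc22a4: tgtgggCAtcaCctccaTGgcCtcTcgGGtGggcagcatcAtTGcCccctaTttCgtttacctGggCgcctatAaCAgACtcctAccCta

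A read from the first 60 bases of this window can be placed on either Slc22a5 or Slc22a21, and no such ambiguity exists there with Slc22a4. Over all their reference transcripts, 33.9% of the 36-base words of Slc22a5 and 27.9% of those of Slc22a21 also occur in another gene, and 420 words of their coding sequences are common to these 2 genes. For Slc22a4 the share was 5.41%. How the authors placed reads that match several genes is not given in the sources used here, so the levels of Slc22a5 and Slc22a21 are uncertain by an amount that the RPKM values do not show.

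Slc22a5, the high-affinity carnitine carrier, was at 12.8, 11.9 and 10.9 RPKM in ULAs and at 10.4, 9.43 and 9.78 RPKM in DLAs. All ULA values were above all DLA values, with a log2 fold change of 0.24 (SE 0.12, 95% interval −0.02 to 0.50, adjusted p = 0.337). Slc22a21 gave 2.61, 1.52 and 1.36 RPKM in ULAs and 1.48, 1.08 and 1.11 RPKM in DLAs, with the ULA of brain 1 well above the rest and the layers overlapping. Its log2 fold change was 0.33 (SE 0.16, 95% interval −0.03 to 0.68, adjusted p = 0.346), from 49 to 147 reads. Slc22a4, best known for ergothioneine uptake, was at 25.4, 17.8 and 22.6 RPKM in ULAs and at 26.9, 23.2 and 22.9 RPKM in DLAs. The layers overlapped although the DLA had the higher value within each brain, and the log2 fold change was −0.15 (SE 0.11, 95% interval −0.41 to 0.10, adjusted p = 0.537).

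The ratio of Slc22a5 to Slc22a4, chosen after their values were seen, was 0.505, 0.666 and 0.484 in ULAs. In DLAs it was 0.387, 0.406 and 0.427. The 2 layers did not overlap. This is a description with no test, since the pair was picked for its opposite directions and the level of Slc22a5 is uncertain as said above. Slc22a15, a carrier of zwitterions on chromosome 3, was under the filter at 0.89, 0.82 and 0.74 RPKM in ULAs and 0.69, 0.54 and 0.87 RPKM in DLAs, with overlapping layers.

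The organic cation carriers Slc22a2 and Slc22a3, also called OCT2 and OCT3, were near 0 in these libraries. Slc22a3, which takes up monoamines, had 1 to 7 reads per library and a mean of 0.0417 RPKM, and Slc22a2 had up to 2 reads. Slc22a16, a carnitine carrier of testis, was listed at 0 in all 6 libraries. The organic anion carriers were as low: of the 8 Slc22 genes at chr19:7747566-8702789 (mm9) none reached a mean of 1 RPKM and the highest, Slc22a8, had 0.117 RPKM. Slc22a6, Slc22a26 and Slc22a28 in that cluster were listed at 0, while Slc22a19, Slc22a29 and Slc22a30 had at most 1 read in any library. Slc22a27, too low to be tested, had 1 read in each ULA library and 3 in each DLA library. Up to 64.1% of the 36-base words of these genes occur in another gene, the highest share being that of Slc22a28, so single reads there cannot be assigned with certainty. The urate carrier Slc22a12 had 1 or 2 reads in every library, and Slc22a7, Slc22a13, Slc22a14, Slc22a20 and Slc22a22 had at most 4 reads in any of them.

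Among the Slco members, 3 reached a mean of 1 RPKM, and none of them reached 10. Slco3a1, a widely expressed carrier of prostaglandins and thyroxine (chr7:81420304-81699666, mm9, minus strand), was at 1.68, 1.31 and 2.30 RPKM in ULAs and 1.77, 1.65 and 2.05 RPKM in DLAs. Brain 3 was the highest in both layers and the layers overlapped, with a log2 fold change of −0.04 (SE 0.15, 95% interval −0.39 to 0.30, adjusted p = 0.917). Slco1a5, an OATP of the cluster on chromosome 6 (chr6:142182748-142271501, mm9, minus strand), gave 1.48, 1.27 and 1.16 RPKM in ULAs and 0.80, 0.63 and 1.13 RPKM in DLAs. Its layers did not overlap, though the lowest ULA value and the highest DLA value, both of brain 3, were close, and the log2 fold change was 0.32 (SE 0.17, 95% interval −0.06 to 0.70, adjusted p = 0.387) from 33 to 98 reads.

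Slco1b2, best known as the bile acid and drug carrier of hepatocytes, varied more between brains than between layers. Its ULA levels were 2.69, 3.11 and 0.58 RPKM and its DLA levels 1.97, 1.40 and 0.38 RPKM (chr6:141578039-141635156, mm9, plus strand), from 37 to 262 reads. Both layers of brain 3 lay below every library of brains 1 and 2. The brain means spanned 1.16 on the log2(RPKM + 1) scale, where the median span was 0.26 for the 10 members tested and 0.25 for all rows tested. Within brains the ULA was the higher each time, and the log2 fold change was 0.43 (SE 0.17, 95% interval 0.05 to 0.81, adjusted p = 0.255 by limma). The gene starts 59340 bases downstream of Slco1c1 on the same strand, whose level was 1084 ± 119 RPKM in ULAs and 845 ± 67.7 RPKM in DLAs (SD, n = 3). No 36-base word of Slco1b2 occurs in another gene.

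The remaining OATP members were low. Slco1a4, the main OATP of brain endothelium, was at 0.09, 0.09 and 0.30 RPKM in ULAs and at 1.03, 0.10 and 0.03 RPKM in DLAs. A single library, the DLA of brain 1, carried 105 of its reads, and no other had more than 31. Slc22a8, an organic anion carrier of brain endothelium and choroid plexus, was likewise highest in that library, at 0.38 RPKM from 35 reads against 0.02 to 0.11 RPKM elsewhere. Slco2b1 did not share the pattern, with 0.19, 0 and 0.16 RPKM in ULAs and 0.27, 0.09 and 0.36 RPKM in DLAs. Beside these values, the summed level of 8 endothelial markers (Cldn5, Pecam1, Flt1, Cdh5, Tek, Emcn, Ly6c1 and Itm2a) was 6.30 RPKM in the DLA of brain 1 and 0.74 to 2.21 RPKM in the other 5 libraries. Itm2a alone supplied 3.57 RPKM of that sum. The same library was the highest for 5 of the 8 markers (Itm2a, Cldn5 at 1.08, Emcn at 0.64, Ly6c1 at 0.52 and Flt1 at 0.23 RPKM) and tied for Pecam1 and Cdh5, whereas Tek was higher in the ULAs of brains 2 and 3. The ninth marker of that list, Slc2a1, was at 170 to 252 RPKM in all libraries. The part of endothelial cells in the levels of Slco1a4 and Slc22a8 was not tested.

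**Figure D3:**
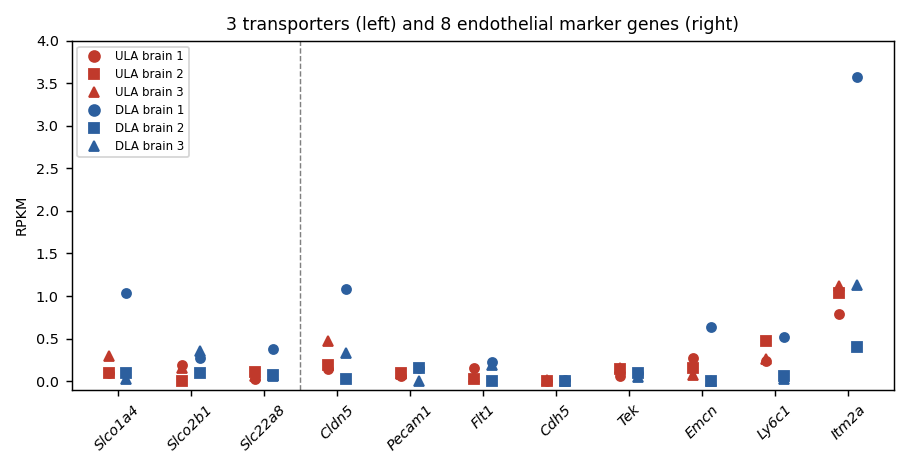
RPKM, on a linear axis, of Slco1a4, Slco2b1 and Slc22a8 (left of the dashed line) and of 8 endothelial marker genes (right) in the 6 libraries, red for ULAs and blue for DLAs, with a circle, square and triangle for brains 1, 2 and 3. The DLA of brain 1 is the highest library for Slco1a4 at 1.03, Slc22a8 at 0.38, Cldn5 at 1.08, Emcn at 0.64 and Itm2a at 3.57 RPKM, while Slco2b1 is highest in the DLA of brain 3.

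Slco2a1, the prostaglandin carrier, had 12, 5 and 19 reads in ULAs and 1, 6 and 1 in DLAs, which overlap. Slco4a1, a thyroid hormone carrier, had up to 6 reads in 2 libraries, and Slco5a1 and the kidney carrier Slco4c1 had at most 2 in any library. Slco6b1, Slco6c1 and Slco6d1, known from testis, had at most 9 reads, and Slco1a1 and Slco1a6 of the chromosome 6 cluster at most 1. That cluster, chr6:141578039-142271501 (mm9), thus held 2 genes over 1 RPKM among 5.

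The start regions of the transporters ranged from rich in CG dinucleotides to free of them. RefSeq windows of the 250 bases before the start (GRCm38.p6, a later build than that of the table, matched by symbol) were at hand for 37 of the 43 members. The letters searched were CG, which read the same on both strands, and where a gene had several windows the one with the most was taken. The 4 printed here stand for the contrast: the 2 carriers with the highest levels, 1 of the 3 members over 10 RPKM with a dense window, and the OATP that varied most between brains. Each is written 5′ to 3′ in the direction of the gene, with CG in capitals.
Slc22a17 (chr14:54913133-54913382, minus strand): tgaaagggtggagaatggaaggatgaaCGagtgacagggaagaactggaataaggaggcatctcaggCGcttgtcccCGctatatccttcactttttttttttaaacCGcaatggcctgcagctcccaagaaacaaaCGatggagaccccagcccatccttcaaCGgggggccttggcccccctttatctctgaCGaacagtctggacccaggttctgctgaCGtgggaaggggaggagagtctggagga
Slc15a2 (chr16:36784963-36785212, minus strand): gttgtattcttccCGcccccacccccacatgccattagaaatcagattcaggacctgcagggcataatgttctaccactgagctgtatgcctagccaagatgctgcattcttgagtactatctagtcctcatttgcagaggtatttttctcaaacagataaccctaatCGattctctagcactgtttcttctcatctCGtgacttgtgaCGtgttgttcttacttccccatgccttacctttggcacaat
Slc22a5 (chr11:53891704-53891953, minus strand): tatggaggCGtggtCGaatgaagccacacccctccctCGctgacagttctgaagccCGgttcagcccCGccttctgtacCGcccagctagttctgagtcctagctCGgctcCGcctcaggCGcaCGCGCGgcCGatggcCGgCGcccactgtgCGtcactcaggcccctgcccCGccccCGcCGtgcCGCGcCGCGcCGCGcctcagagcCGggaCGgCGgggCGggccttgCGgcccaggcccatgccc
Slco1b2 (chr6:141629268-141629517, plus strand): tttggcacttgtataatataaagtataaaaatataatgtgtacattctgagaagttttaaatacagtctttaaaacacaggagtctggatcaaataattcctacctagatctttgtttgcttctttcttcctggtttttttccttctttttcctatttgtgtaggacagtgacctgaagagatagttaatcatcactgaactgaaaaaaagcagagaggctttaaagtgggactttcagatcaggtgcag

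These windows hold 8, 4, 30 and 0 CG dinucleotides and 53.6%, 45.2%, 73.6% and 33.6% G and C. The 2 carriers with the highest mRNA levels thus had few, while Slc22a23, Slc22a5, Slc22a4, Slc22a15 and Slc15a4 held 32, 30, 26, 24 and 17. A count of at least 15, a limit chosen after the values were seen, was found in 7 of the 37 members (18.9%), against 29.6% of the 27025 genes in the promoter table. Among members with a mean of at least 1 RPKM it was found in 4 of 8, against 61.8% of the 8301 tested rows that had a window. Of the 25 members under 0.1 RPKM, 2 had such a window (8.0%), namely Slco4a1 and Slco4c1. These are counts of letters and say nothing of methylation or of factors bound there.

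**Figure D4:**
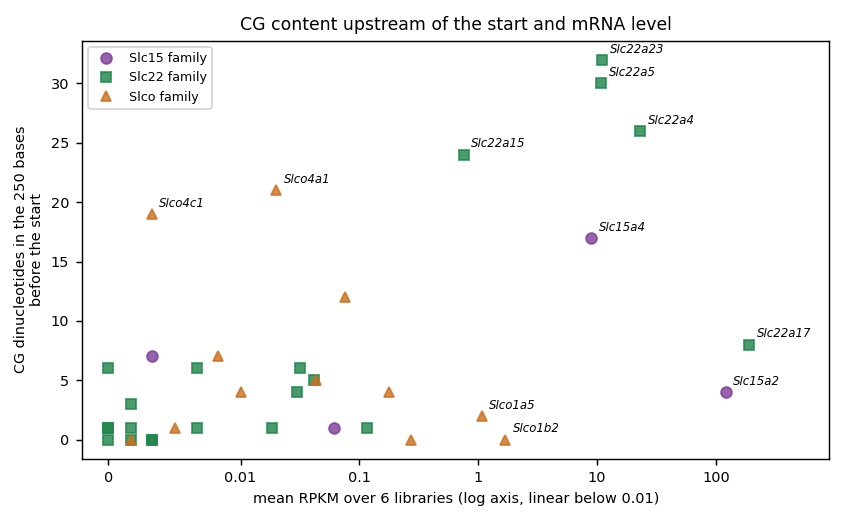
Number of CG dinucleotides in the 250 bases before the start (vertical axis) against mean RPKM over 6 libraries (horizontal log axis, linear below 0.01) for the 37 transporters with a RefSeq window, with colour and shape for the family. Slc22a17 and Slc15a2 have the highest levels with 8 and 4 CG, whereas Slc22a23, Slc22a5 and Slc22a4 have 26 to 32, and most members near 0 RPKM have few.

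Genes linked to the same substrates, and scaffolds that bind carrier tails, were read from the same fit, in 5 lists with 33 genes tested. By limma none had an adjusted p under 0.05 in either direction, against the 0.714% and 0.914% of all rows. At an unadjusted p under 0.05 there were 4 toward ULAs (Dpp8, Cpt1c, Abcc1 and Abcc4) and 3 toward DLAs (Cndp2, Maoa and Hnmt), against 5.64% and 10.8% of all rows. Of 18 genes of peptide handling, the peptidases and sensors downstream of Slc15 carriers, 11 were tested, with a median log2 fold change of −0.03. The leucine aminopeptidase Lap3 had the highest level at 84.5 to 99.4 RPKM in ULAs and 97.8 to 108 RPKM in DLAs. Cndp2, a cytosolic dipeptidase, gave 19.3 ± 0.75 and 23.2 ± 1.54 RPKM (SD, n = 3) in ULAs and DLAs, without overlap, for a log2 fold change of −0.26 (adjusted p = 0.269 by limma). Dpp8, which cleaves dipeptides from peptide ends, gave 10.8 ± 0.61 and 8.0 ± 1.28 RPKM (SD, n = 3), for which limma gave 0.40 on the log2 scale (adjusted p = 0.154).

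The carnitine system, which uses what Slc22a5 imports, had 8 of 10 genes tested and a median of −0.07. Its highest gene was Crot, the peroxisomal carnitine octanoyltransferase, at 184 to 220 RPKM in ULAs and 174 to 192 RPKM in DLAs. Cpt1c, a brain form of carnitine palmitoyltransferase, had 24.0 ± 4.16 and 17.9 ± 0.60 RPKM (SD, n = 3) and a log2 fold change of 0.39 (adjusted p = 0.152 by limma). In the list of organic cation and monoamine clearance 5 of 11 genes were tested, with a median of −0.06, and 6 had a mean under 0.1 RPKM. Maob, which breaks down amines, was at 59.6 to 90.5 RPKM over the 6 libraries. Hnmt, which inactivates histamine, had 28.6 ± 8.11 and 37.6 ± 9.30 RPKM (SD, n = 3), with a log2 fold change of −0.39 (adjusted p = 0.113 by limma) and higher values in brain 3 of both layers.

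ABC efflux pumps, which export organic anions and drugs, had 6 of 11 genes tested and a median of 0.08. Abcc1 was at 4.68, 3.91 and 3.12 RPKM in ULAs and 2.68, 2.34 and 1.68 RPKM in DLAs, with no overlap, a log2 fold change of 0.60 (SE 0.14) and an adjusted p of 0.070 by limma. For Abcc4 the value was 0.46 (SE 0.17, adjusted p = 0.228 by limma), and the layers overlapped by 1 library of each layer. The highest of the list, Abcc5, was at 10.1 to 12.1 RPKM. Of the PDZ scaffolds, which bind the tails of membrane carriers, 3 of 4 were tested with a median of 0.04, and Slc9a3r1 was at 237 to 342 RPKM, of the order of Slc22a17.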

How the data were processed

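The authors deposited RPKM values and the mRNA length of 43383 rows for 6 libraries. Per the labels and the methods of the study, cDNA was made with SMART-Seq v4, tagged with Nextera XT and read as single 36-base reads. The submitters' processing notes name mm9, bcl2fastq 1.8.4 and CASAVA 1.8.2. Read numbers were recovered from RPKM steps in rows up to 500 bases and give precision only. At the depths used 100% of values were whole, against 59.2 to 72.5% at the next best depth.

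The 13999 rows whose RPKM averaged at least 1 were fitted on log2(RPKM + 1) with limma 3.58.1 in R 4.3.3 (trend, 2-sided, Benjamini-Hochberg, adjusted p under 0.05). The replicate number entered as a block, since libraries of one number deviated together (r = 0.42, 0.33 and 0.34, against −0.20 to −0.16). Fits were checked on simulated data. Other steps used Python 3.11.15, pandas 2.3.3, numpy 2.4.6 and matplotlib 3.10.9. All members are named except 1 that is not reported here, and list genes where called or among the highest, while others named were chosen after their values were seen. Members and lists were chosen with earlier results of these data known. Alternatives were the fit without the block, a pseudocount of 0.1, no filter, a mean of 5, median centring, quantile normalization, no trend, a length correction (loess, span 0.5), each brain left out, and an adjusted p under 0.1.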

Additional observations from a re-analysis of the deposited data

How the results depend on the processing

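Of 106 alternative values of single members, 101 kept their direction and their side of the threshold. Slc15a2 kept its direction in all 11 of its alternatives (log2 fold change 0.32 to 0.50, adjusted p 0.0166 to 0.441). It was the only member to pass, which put the number of members called higher in ULAs at 1 rather than 0 with a mean RPKM of at least 5 (6 members tested), with quantile normalization and at an adjusted p under 0.1, and at 0 to 1 when a brain was left out, the 1 being without brain 3. In the fit without the replicate block (no paired term) 0 members passed in either direction. Members called higher in DLAs were 0 throughout. With a brain left out, the log2 fold change of Slc22a17 ran from −0.067 to 0.15, reversed without brain 3. That of Slco3a1 ran from −0.12 to 0.033, reversed without brain 2, and the cause of these reversals was not tested. Slc15a4 ran from −0.34 to −0.051, Slc22a4 from −0.22 to −0.049 and Slco1b2 from 0.25 to 0.54. Each of these was smallest in size without brain 2. The members' median of 0.26 was 0.14 with a mean of at least 5, where fewer members were tested, and 0.17 with the length correction, whose cause was not tested, and 0.20 to 0.30 when a brain was left out. Pathway genes called were 0 to 2 toward ULAs and 0 to 1 toward DLAs when a brain was left out, all without brain 3 (Abcc1, Abcc4 and Hnmt), and 1 toward ULAs at an adjusted p under 0.1 (Abcc1).

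Over all rows, 100 and 128 were called toward ULAs and DLAs. This became 23 and 18 without the block, 0 and 0 without a filter (27963 rows), 65 and 79 without the trend, 64 and 83 with the length correction, and 431 and 695 without brain 3. The share of calls toward ULAs was 43.9%, and 57.3% with quantile normalization. Members with a mean under 0.1 RPKM rest on at most 19 reads in any library. Replicates are brains, and 3 of them limit each interval.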
